A study of Mus musculus with 22 samples.

Results

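Chemokines of the CC family are small secreted proteins that steer leukocyte migration, and the RNA of 10 of them (Ccl2, Ccl3, Ccl4, Ccl5, Ccl6, Ccl7, Ccl9, Ccl17, Ccl22 and Ccl24) was followed in mouse myeloid cells with and without VISTA. The members were named by symbol and are 10 of the 35255 genes listed in the 3 count tables of the series, and each of the 10 was found in all 3 tables. VISTA, encoded by Vsir, is an inhibitory immune checkpoint molecule of the B7 family that myeloid cells carry in abundance. The study, titled for the role of VISTA in myeloid-derived suppressor cells, compared VISTA KO with WT mice on a C57BL/6N strain background by bulk RNA sequencing of 22 libraries.

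CC chemokines bind G protein-coupled receptors on leukocytes, and most receptors accept several ligands. CCR2 is the receptor for the monocyte attractants CCL2 and CCL7, CCR1 takes CCL3, CCL5 and the rodent chemokines CCL6 and CCL9, CCR4 takes CCL17 and CCL22, and CCR3 takes the eosinophil attractant CCL24. In tumors, CCR2 ligands are known for drawing monocytes out of the blood, and CCR4 ligands for drawing regulatory T cells.

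Normoxia cultures were bone marrow myeloid progenitors grown with GM-CSF and IL-6 for 4 days, with 4 WT and 4 VISTA KO libraries. Hypoxia cultures, labelled as bone marrow myeloid cells at 24 hours, also gave 4 libraries of each genotype, and neither their oxygen level nor their cytokines are given in the sources used here. The tumor libraries, 3 WT and 3 VISTA KO, were labelled as tumor tissue of MC38, a mouse colon carcinoma line, at day 7, and how the cells were obtained is not given in the sources used here. Independent biological replicates are stated for normoxia only, so p-values elsewhere measure the spread between libraries, which may be technical. Neither the deleted part of Vsir nor its cell type restriction is given in the labels. The culture columns of the KO carry another name than the sample titles, and were read as KO because the other columns name WT.

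Total counts were 23409142 to 23722932 per library in normoxia, 30839108 to 31385825 in hypoxia and 19119985 to 31716200 in tumor, where every KO library was shallower than every WT library. Vsir was lower in every KO library than in every WT library of its experiment, at log2 fold changes of -2.01, -1.89 and -1.95 in normoxia, hypoxia and tumor, and some Vsir RNA was counted in every KO library. Of 8 markers of the labelled myeloid cells, Ly6g was at or near 0 in the tumor libraries, as were the neutrophil granule genes Camp and Ngp. Markers of epithelium summed to 16.8 to 55.4 CPM (counts scaled to the library total, as parts per 1e6) in tumor. The myeloid markers summed to 14283 to 18831 CPM in WT tumor and 20112 to 23807 CPM in KO, without overlap. Of 7 tested, edgeR called 0 higher (Lyz2 alone at an unadjusted p under 0.05) and 1 lower. Neutrophil markers in tumor summed to 313 to 340 CPM in WT and 411 to 453 CPM in KO. Of 4 tested, 2 were higher and 0 lower (Retnlg alone lower at an unadjusted p under 0.05). Markers of fibroblasts and endothelium summed to 365 to 451 CPM in WT tumor and 455 to 571 CPM in KO tumor. Of these 6 markers edgeR called 0, and Col3a1 alone was higher at an unadjusted p under 0.05. The part of these cell types, myeloid cells and neutrophils included, in the tumor results was not tested. In both cultures the KO had more RNA of neutrophil markers, with 7 of 8 higher in normoxia and 8 of 8 in hypoxia. Mast cell and basophil markers were also higher in KO cultures, for 7 of 7 tested in normoxia (44.5 to 64.2 CPM summed in WT, 93.3 to 128 CPM in KO) and 8 of 8 in hypoxia (476 to 736 and 738 to 1066 CPM). Eosinophil markers were higher in KO for 3 of 5 tested in normoxia and 7 of 7 in hypoxia. The part of these cell types in the culture results was not tested. In these bulk samples, more cells of a type and more RNA per cell cannot be told apart.

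Of the 10 genes, 7 lie on chromosome 11 in 2 groups and 2 lie on chromosome 8 (GRCm38). Ccl2 (chr11:82035571-82037453) and Ccl7 (chr11:82045712-82047525) are 8.26 kb apart. At a distance of 1478 kb follow Ccl5 (chr11:83525778-83530518), Ccl9 (chr11:83572919-83578636), Ccl6 (chr11:83587882-83593087), Ccl3 (chr11:83647844-83649355) and Ccl4 (chr11:83662584-83664683). Ccl22 (chr8:94745590-94751699) and Ccl17 (chr8:94810453-94812036) are 58.8 kb apart, and Ccl24 (chr5:135569937-135573049) stands alone. All 10 are annotated as protein coding, and no exon of theirs overlaps an exon of another gene.

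RefSeq promoters (GRCm38.p6) matched 5 of the 10 members, namely Ccl3, Ccl6, Ccl9, Ccl17 and Ccl22. Sequences are shown for Ccl17 and Ccl22, ligands of the same receptor of which Ccl17 passed the genotype test in both cultures and Ccl22 in neither, and for Ccl6 and Ccl9, which were both lower in KO hypoxia cultures. Each runs 5′ to 3′ on the strand of its gene and ends at the start of transcription, or, for Ccl22, at the more upstream of the RefSeq and GENCODE starts. Capitals mark a STAT motif (TTCNNNGAA) and a HIF core (GCGTG) in Ccl17, and kappaB-like motifs (GGGNNNNNCC, read here on the opposite strand) in Ccl22 and Ccl9.
Ccl17, chr8:94810203-94810452, plus strand: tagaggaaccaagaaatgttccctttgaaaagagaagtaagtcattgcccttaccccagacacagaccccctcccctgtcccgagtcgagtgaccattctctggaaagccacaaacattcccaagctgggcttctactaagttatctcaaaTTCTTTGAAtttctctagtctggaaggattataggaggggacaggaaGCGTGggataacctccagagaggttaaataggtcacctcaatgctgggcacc
Ccl22, chr8:94745434-94745589, plus strand: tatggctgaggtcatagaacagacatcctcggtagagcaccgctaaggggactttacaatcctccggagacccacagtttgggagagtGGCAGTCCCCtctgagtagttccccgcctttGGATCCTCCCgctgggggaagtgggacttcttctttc
Ccl6, chr11:83593088-83593337, minus strand: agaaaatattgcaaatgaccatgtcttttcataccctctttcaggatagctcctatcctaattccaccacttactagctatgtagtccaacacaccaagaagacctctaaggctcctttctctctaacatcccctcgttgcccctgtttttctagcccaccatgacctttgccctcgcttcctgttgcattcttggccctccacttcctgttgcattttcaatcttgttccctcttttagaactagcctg
Ccl9, chr11:83578637-83578886, minus strand: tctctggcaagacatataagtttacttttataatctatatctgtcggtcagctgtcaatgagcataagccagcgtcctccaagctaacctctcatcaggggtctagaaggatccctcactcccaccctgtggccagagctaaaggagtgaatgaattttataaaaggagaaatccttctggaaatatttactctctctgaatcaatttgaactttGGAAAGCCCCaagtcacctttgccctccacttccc

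Both strands of the 250 bases before the RefSeq start were searched for these motifs and for a further HIF core, ACGTG. Of the 5 promoters, TTCNNNGAA was found in Ccl17 alone, and 7.02% of all 32851 RefSeq promoters hold it. GGGNNNNNCC was found in Ccl22 at 2 places and in Ccl9 at 1, and 45.8% of all promoters hold it. GCGTG was found in Ccl17 alone, with 28.2% of all promoters holding it, and ACGTG, held by 16.6%, in none of the 5. Ccl3 and Ccl6 held none of the 4 motifs in this window. The longest run shared by the Ccl6 and Ccl9 promoters was 13 bases, gccctccacttcc. A match describes the letters and is not evidence of a bound site.

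Which of these chemokines made up the RNA differed between cultures and tumor more than between genotypes. Levels of different genes were compared as CPM per kilobase of exon (GENCODE M21), and each gene was taken as a share of the sum over the 10. In normoxia Ccl6, a CCR1 ligand, held 86.4% ± 1.69 of the sum in WT (SD, n = 4) and 87.6% ± 2.34 in KO (SD, n = 4). In hypoxia its share was 69.9% ± 2.82 in WT and 64.2% ± 1.07 in KO (SD, n = 4 each), and Ccl3 stood next with 17.8% ± 2.07 and 23.4% ± 1.53. No KO hypoxia library reached the Ccl6 share of any WT library, the highest KO share being 65.4% and the lowest WT share 65.8%.

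Tumor libraries had no such leader. In WT tumor Ccl2 held 29.1% ± 2.57 and Ccl7 28.8% ± 0.435 of the sum (SD, n = 3), and their levels overlapped. In KO tumor Ccl7 held 22.1% ± 0.614, Ccl2 22.01% ± 1.39, Ccl6 18.1% ± 0.761 and Ccl5 15.7% ± 3.52 (SD, n = 3). The Ccl5 share in WT tumor was 5.79% ± 1.32 (SD, n = 3), below every KO tumor library. Ccl17 and Ccl22 were the lowest of the 10 in both tumor groups, and their levels overlapped there.

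**Figure D1:**
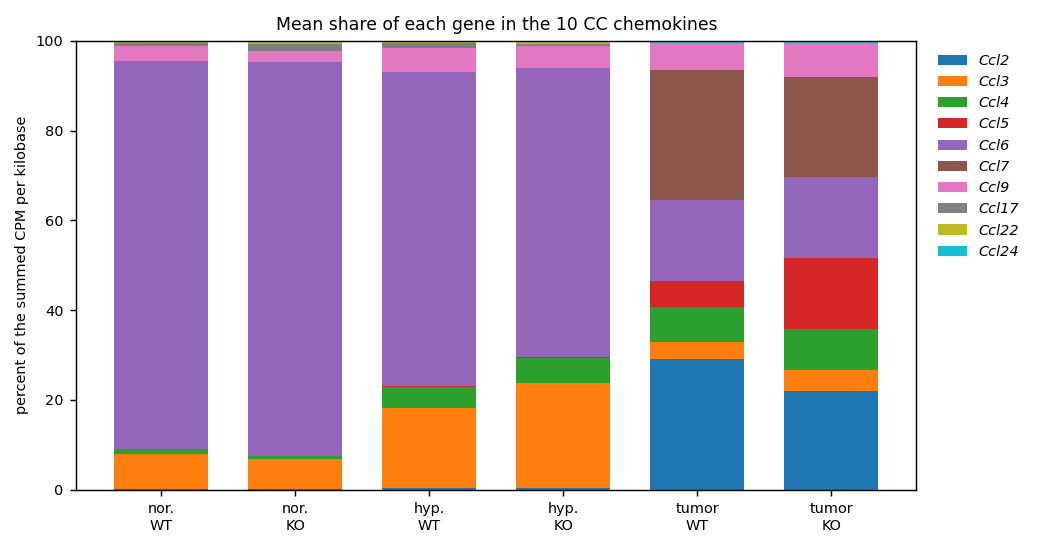
Stacked bars give the mean percentage of each gene in the summed CPM per kilobase of the 10 CC chemokines (y axis) in the 6 groups (x axis; nor., normoxia; hyp., hypoxia). Ccl6 takes 86.4% of the WT normoxia bar and 18.02% of the WT tumor bar, where Ccl2 and Ccl7 take 29.1% and 28.8%.

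In CPM per kilobase, the WT normoxia order was Ccl6 (mean 1555), Ccl3 (140.5), Ccl9 (59.4), Ccl4 (18.4), Ccl17 (12.2), Ccl22 (8.89), Ccl2 (3.22), Ccl5 (1.31), Ccl24 (0.477) and Ccl7 (0.103). Neighbours from Ccl4 to Ccl22 overlapped between libraries, as did those from Ccl2 to Ccl24. The KO normoxia order put Ccl17, at 24.8, above Ccl22, at 10.8, and Ccl4, at 8.85. In WT hypoxia Ccl6 (1641), Ccl3 (414), Ccl9 (126) and Ccl4 (107) led without overlap, and in KO hypoxia Ccl4 (112) and Ccl9 (93.3) overlapped. The first 4 in WT tumor were Ccl2 (621), Ccl7 (613), Ccl6 (382) and Ccl4 (166).

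**Figure D2:**
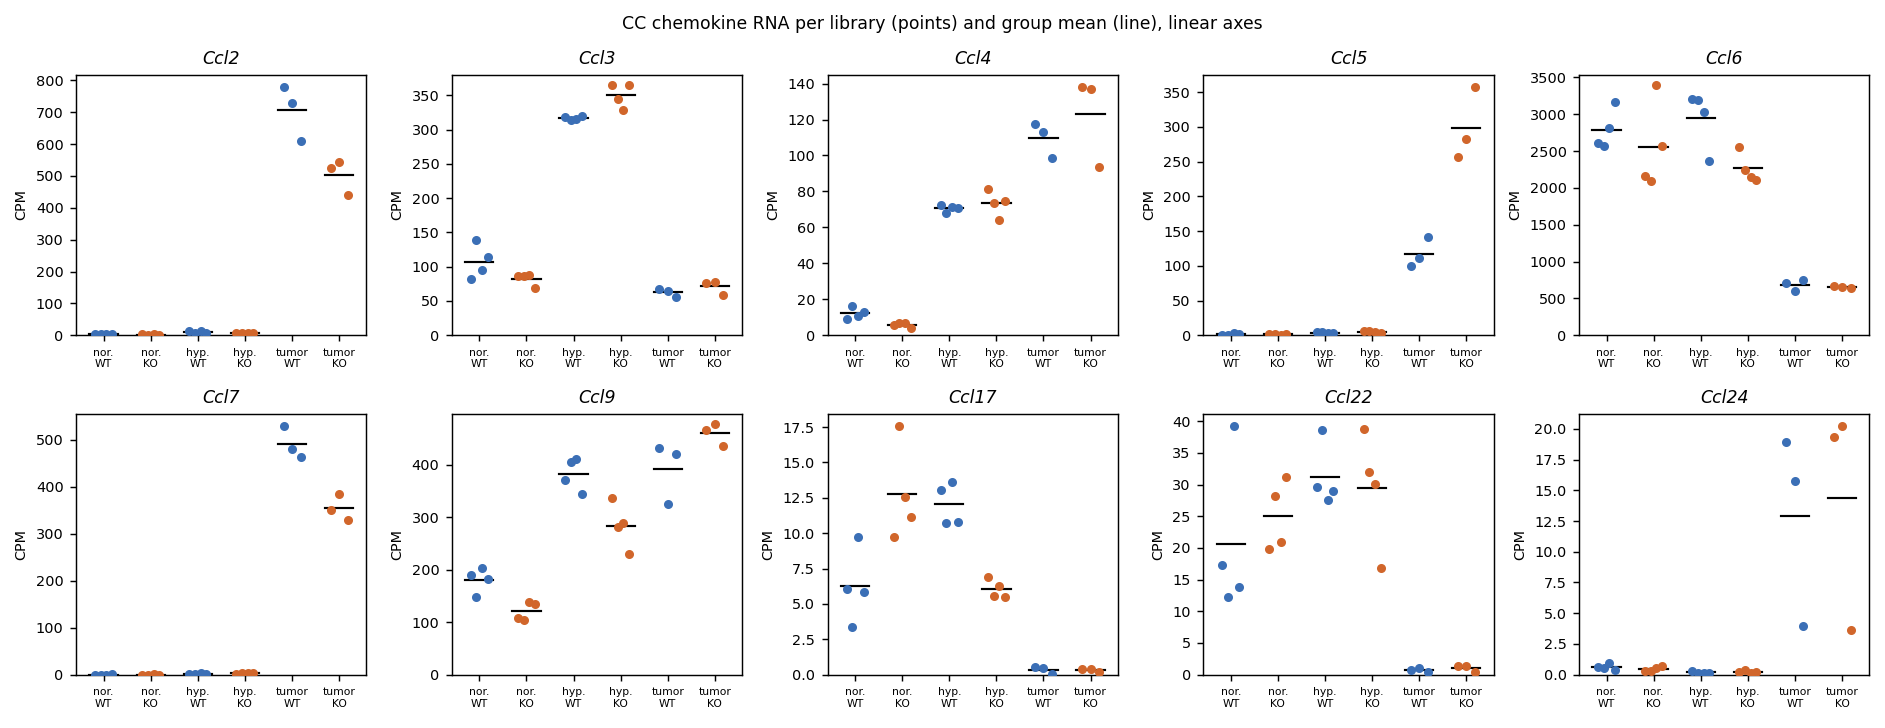
Points are the CPM of each gene in each library and lines are group means, on linear axes that start at 0 and differ between genes (nor., normoxia; hyp., hypoxia; blue, WT; orange, KO). Ccl5 in tumor lies at 256 to 358 CPM in KO and 99.9 to 141 CPM in WT, and Ccl17 in hypoxia lies at 10.8 to 13.6 CPM in WT and 5.49 to 6.86 CPM in KO.

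Ccl2, the main CCR2 ligand, was lower in VISTA KO in all 3 experiments. In tumor the WT libraries had 779, 730.2 and 609 CPM of Ccl2 and the KO libraries 524, 543 and 439 CPM. Every KO tumor library was below every WT library, and the log2 fold change was -0.49 ± 0.10 (SE, n = 3 and 3; edgeR quasi-likelihood test, Benjamini-Hochberg adjusted p = 0.0174). Without WT replicate 1 or WT replicate 2, the adjusted p of this fall was 0.0550 or 0.0914.

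In normoxia Ccl2 was low, at 3.10, 4.09, 3.65 and 3.82 CPM in WT and 2.71, 2.26, 2.63 and 1.56 CPM in KO. The genotypes did not overlap, and the log2 fold change was -0.67 ± 0.19 (SE, n = 4 and 4; edgeR adjusted p = 0.0437). In hypoxia the WT libraries had 12.5, 7.87, 13.4 and 7.58 CPM and the KO libraries 6.10, 8.27, 7.48 and 6.14 CPM. Here WT replicates 1 and 3 were high and the genotypes overlapped, with a log2 fold change of -0.56 ± 0.19 (SE, n = 4 and 4; edgeR adjusted p = 0.0399). Leaving out any 1 of 7 normoxia libraries, all but KO replicate 1, took the normoxia adjusted p above the threshold of 0.05, up to 0.103. The same held in hypoxia without KO replicate 1, 3 or 4 or WT replicate 1 or 3, up to 0.131.

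Ccl7, a second CCR2 ligand, had 0 to 3 reads per library in normoxia and was not tested there. In hypoxia it stood at 2.04, 1.38, 2.83 and 1.002 CPM in WT and 1.93, 3.33, 3.82 and 2.37 CPM in KO. The genotypes overlapped, and the difference did not pass (log2 0.66 ± 0.30, SE; edgeR adjusted p = 0.111), but passed at 0.0322 without WT replicate 3 and at 0.00470 with no filter on low counts. In tumor Ccl7 was abundant, at 529, 481 and 463 CPM in WT and 351, 384 and 330.1 CPM in KO. Each KO library was below each WT library there, with a log2 fold change of -0.47 ± 0.08 (SE, n = 3 and 3; edgeR adjusted p = 0.00388). The difference of the KO effects, tumor minus hypoxia, was -1.16 ± 0.31 for Ccl7 (log2, SE; edgeR adjusted p = 0.0220). That call was lost without hypoxia KO replicate 2 or 3 (adjusted p = 0.0568 and 0.0561) or tumor KO replicate 3 (0.0517). Summed macrophage markers overlapped between the tumor genotypes, at 5763 to 6651 CPM in WT and 5849 to 6480 CPM in KO. By edgeR 0 of 8 were higher (0 also at an unadjusted p under 0.05) and 1 was lower, against 3.28% and 3.04% of all genes tested. The median log2 fold change of these 8 markers was -0.16. The part of macrophages in the Ccl2 and Ccl7 results was not tested.

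The ratio of Ccl2 to Ccl7, each per kilobase, ranged from 0.926 to 1.07 over the 3 WT tumor libraries and from 0.936 to 1.05 over the 3 KO tumor libraries. In hypoxia it was 4.25 ± 0.822 in WT and 1.79 ± 0.346 in KO (SD, n = 4), and no KO library reached a WT ratio. The pair thus had nearly equal RNA per length in tumor in both genotypes, and in hypoxia an excess of Ccl2 that was smaller in KO.

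Ccl5, a ligand of CCR1 made by T and NK cells as well as myeloid cells, had the largest genotype difference in tumor of the 9 members tested there. The WT tumor libraries had 99.9, 111 and 141 CPM of Ccl5 and the KO libraries 256, 283 and 358 CPM. The lowest KO library was above the highest WT library, and Ccl5 was 2.55-fold higher in KO (log2 1.35 ± 0.16, SE, n = 3 and 3; edgeR adjusted p = 0.00167). Beside it, the T and NK cell markers were at 12.7 to 26.9 CPM summed in WT tumor and 5.96 to 9.90 CPM in KO, with 3 of 7 tested markers lower (Cd3e, Cd3g and Cd4) and Trac at or near 0. The NK cell marker Ncr1 was at log2 1.55 in KO against WT and did not pass (edgeR adjusted p = 0.118; 0 of 7 markers were called higher, and Ncr1 alone at an unadjusted p under 0.05). The dendritic cell markers summed to 3113 to 4173 CPM in WT tumor and 5262 to 7370 CPM in KO, with 4 of 8 higher (Flt3, H2-Ab1, Ciita and Dpp4). The part of these cell types in the Ccl5 result was not tested.

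Ccl5 was scarce in culture. Normoxia WT libraries had 0.794, 0.449, 2.71 and 1.08 CPM and KO libraries 1.27, 1.72, 1.03 and 1.56 CPM, so that the genotypes overlapped, with WT replicate 3 the highest of the 8. In hypoxia the values were 4.95, 4.64, 2.77 and 3.07 CPM in WT and 5.598, 5.599, 4.34 and 2.76 CPM in KO, again overlapping. Neither difference passed (log2 0.16 ± 0.44 and 0.25 ± 0.24, SE; edgeR adjusted p = 0.830 and 0.454). The Ccl5 effect in tumor was larger than that in normoxia by 1.16 ± 0.52 and than that in hypoxia by 1.06 ± 0.39 on the log2 scale, and neither difference of effects passed (edgeR adjusted p = 0.228 and 0.114).

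Ccl3 and Ccl4, also called macrophage inflammatory proteins, kept different ratios in the 2 genotypes in normoxia. Ccl4 stood at 8.81, 16.4, 10.5 and 12.9 CPM in WT normoxia and 5.51, 6.92, 6.92 and 4.03 CPM in KO. All KO libraries were below all WT libraries, at 2.08-fold lower (log2 -1.05 ± 0.21, SE, n = 4 and 4; edgeR adjusted p = 0.0126). Ccl3 had 81.4, 139.6, 94.9 and 114.5 CPM in WT and 85.9, 86.2, 87.2 and 68.4 CPM in KO. WT replicate 1 fell inside the KO range, and the difference did not pass (log2 -0.39 ± 0.15, SE; edgeR adjusted p = 0.105). The ratio of Ccl3 to Ccl4 per kilobase was 7.68 ± 0.266 in WT and 12.4 ± 1.93 in KO (SD, n = 4), with no overlap.

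In hypoxia neither gene passed between genotypes. Ccl4 had 72.2, 67.8, 71.3 and 70.8 CPM in WT and 81.6, 73.7, 64.4 and 74.7 CPM in KO, which overlapped (log2 0.06 ± 0.07, SE; edgeR adjusted p = 0.542). Ccl3 was at 318, 314, 315 and 320.0 CPM in WT and 365, 344, 329 and 365 CPM in KO. Each KO library was above each WT library for Ccl3, and the difference was small and missed the threshold (log2 0.15 ± 0.06, SE; edgeR adjusted p = 0.0631), while DESeq2 gave an adjusted p of 0.0388. In tumor Ccl3 ranged from 56.1 to 67.5 CPM in WT and 58.9 to 78.4 CPM in KO, and Ccl4 from 98.5 to 117.5 and 93.3 to 138 CPM. Both overlapped between genotypes (edgeR adjusted p = 0.381 and 0.584), and Ccl4 passed at 0.0452 without KO replicate 3.

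The KO effect on Ccl4 differed between experiments. Tumor minus normoxia was 1.19 ± 0.25 (log2, SE; edgeR adjusted p = 0.00668), and hypoxia minus normoxia was 1.12 ± 0.22 (edgeR adjusted p = 0.0295). The second of these lost its call without any 1 of normoxia KO replicate 1, normoxia WT replicate 4, hypoxia KO replicates 1, 2 and 4 and each hypoxia WT replicate, with adjusted p up to 0.0745. For Ccl3 the difference of effects was 0.54 ± 0.17 for hypoxia minus normoxia and 0.56 ± 0.19 for tumor minus normoxia, and neither passed (edgeR adjusted p = 0.226 and 0.0878). The latter passed at library size only (adjusted p = 0.0407), without normoxia WT replicate 1 (0.0285) and without tumor KO replicate 3 (0.0378).

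Ccl6 and Ccl9, CCR1 ligands found in rodents, were both lower in KO hypoxia cultures. Ccl9 had 371, 406, 409.9 and 344 CPM in WT hypoxia and 337, 281, 288 and 230.0 CPM in KO. The KO libraries were all below the WT libraries, at a log2 fold change of -0.43 ± 0.10 (SE, n = 4 and 4; edgeR adjusted p = 0.00790). Ccl6 had 3204, 3191, 3026 and 2360.4 CPM in WT and 2561, 2243, 2153 and 2107 CPM in KO. WT replicate 4 fell inside the KO range of Ccl6, and the log2 fold change was -0.38 ± 0.10 (SE, n = 4 and 4; edgeR adjusted p = 0.0137). Summed macrophage markers in these libraries were 1109 to 1498 CPM in WT and 661 to 1112 CPM in KO. Of these markers 1 of 8 was higher and 2 were lower, near the 17.4% and 17.6% of all genes tested. The part of macrophages in these falls was not tested.

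In normoxia Ccl9 passed the test and Ccl6 did not. WT libraries had 189, 148, 204 and 182 CPM of Ccl9 and KO libraries 107, 103, 138 and 134 CPM, without overlap (log2 -0.58 ± 0.12, SE, n = 4 and 4; edgeR adjusted p = 0.0148). Without WT replicate 1 the adjusted p was 0.0610. Ccl6 ranged from 2568 to 3172 CPM in WT and from 2094 to 3400.2 CPM in KO, where replicate 3 was the highest of all 8 libraries, and did not pass (log2 -0.13 ± 0.15, SE; edgeR adjusted p = 0.574).

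In tumor Ccl9 was at 432, 325 and 421 CPM in WT and 466, 478 and 436 CPM in KO. KO libraries were above WT libraries, narrowly so in 2 of 3, and the test did not pass (log2 0.23 ± 0.10, SE; edgeR adjusted p = 0.227). The KO effect on Ccl9 nonetheless differed from that in normoxia by 0.78 ± 0.18 (edgeR adjusted p = 0.0111) and from that in hypoxia by 0.62 ± 0.18 (edgeR adjusted p = 0.0365). The latter lost its call without any 1 of hypoxia KO replicates 2 and 4, hypoxia WT replicates 2 and 3, tumor KO replicates 1 and 2 and tumor WT replicate 2, with adjusted p up to 0.114. Ccl6 in tumor, at 602 to 749 CPM in WT and 637 to 663 CPM in KO, overlapped and did not pass (log2 -0.08 ± 0.08, SE; edgeR adjusted p = 0.657).

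Ccl17, a CCR4 ligand typical of dendritic cells and alternatively activated macrophages, was higher in KO in normoxia and lower in KO in hypoxia. In hypoxia WT libraries had 13.1, 10.8, 13.6 and 10.8 CPM and KO libraries 6.86, 5.53, 6.24 and 5.49 CPM. The genotypes stood far apart there, at a log2 fold change of -0.999 ± 0.12 (SE, n = 4 and 4; edgeR adjusted p = 0.000103). In normoxia WT libraries had 6.03, 3.39, 9.75 and 5.85 CPM and KO libraries 9.75, 17.6, 12.5 and 11.1 CPM. WT replicate 3 met KO replicate 1, and the log2 fold change was 1.03 ± 0.27 (SE, n = 4 and 4; edgeR adjusted p = 0.0350). That rise was lost without any 1 of KO replicates 2, 3 and 4 or WT replicates 1, 2 and 4, with adjusted p up to 0.0979, and at 0.102 with no filter on low counts.

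The 2 effects on Ccl17 differed by -2.03 ± 0.32 on the log2 scale (hypoxia minus normoxia, SE; edgeR adjusted p = 0.00725), and this held without any single library. Dendritic cell markers in normoxia summed to 44.0, 35.5, 65.4 and 43.7 CPM in WT and 73.4, 114, 81.0 and 149 CPM in KO, with 3 of 7 tested higher (H2-Ab1, Ciita and Dpp4). In hypoxia they were at 225 to 321 CPM in WT and 107 to 242 CPM in KO, which overlapped. There 1 of 8 was lower (Itgax), against 17.6% of all genes tested. The part of dendritic cells in the Ccl17 result was not tested.

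Ccl22, which binds the same receptor as Ccl17, passed in no experiment. In normoxia WT libraries had 17.3, 12.3, 39.2 and 13.8 CPM and KO libraries 19.8, 28.2, 20.9 and 31.2 CPM. WT replicate 3 was above every KO library while the other 3 WT libraries were below all of them (log2 0.28 ± 0.32, SE; edgeR adjusted p = 0.571). Without that library the log2 fold change was 0.79 with an adjusted p of 0.0248. In hypoxia Ccl22 was at 29.6, 38.6, 27.5 and 29.0 CPM in WT and 38.7, 32.0, 30.1 and 16.8 CPM in KO, which overlapped (log2 -0.08 ± 0.21, SE; edgeR adjusted p = 0.791). The difference of its 2 culture effects was -0.36 ± 0.45 (edgeR adjusted p = 0.962).

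The ratio of Ccl17 to Ccl22 per kilobase was 1.47 ± 0.357 in WT and 2.34 ± 0.552 in KO normoxia, and 1.80 ± 0.422 in WT and 0.999 ± 0.325 in KO hypoxia (SD, n = 4). The ranges overlapped in both cultures. In tumor both were near the floor. Ccl17 had 16, 14 and 1 reads in WT and 9, 8 and 3 in KO and was not tested, with a KO to WT rate ratio of 0.903 (exact 95% interval 0.488 to 1.63, which covers counting error only). Ccl22 ranged from 0.398 to 0.961 CPM in WT tumor and from 0.464 to 1.32 CPM in KO (log2 0.54 ± 0.46, SE; edgeR adjusted p = 0.563).

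Ccl24, also called eotaxin-2, was found mainly in the tumor libraries, and unevenly so. WT tumor libraries had 18.9, 15.8 and 3.98 CPM and KO libraries 19.3, 20.2 and 3.66 CPM. Replicate 3 was the low library in both genotypes, and the genotypes overlapped (log2 0.16 ± 0.85, SE; edgeR adjusted p = 0.949). In normoxia Ccl24 was at 0.373 to 0.933 CPM in WT and 0.293 to 0.687 CPM in KO (log2 -0.45 ± 0.37, SE; edgeR adjusted p = 0.415). In hypoxia, with 4 to 11 reads per library, it was not tested, and the KO to WT rate ratio was 1.14 (exact 95% interval 0.632 to 2.06).

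Counted together, 1 member was higher and 3 were lower in KO of 9 tested in normoxia, where 7.13% and 4.17% of all genes tested were called higher and lower. In hypoxia 0 were higher and 4 lower of 9 tested, against 17.4% and 17.6% of all genes in edgeR. At an unadjusted p under 0.05, 1 member (Ccl3) was higher in hypoxia, and DESeq2 also called 1. In tumor 1 was higher and 2 were lower of 9 tested, against 3.28% and 3.04%. The median log2 fold change of the tested members was -0.39 in normoxia, -0.08 in hypoxia and 0.16 in tumor, beside -0.02, -0.01 and 0.01 over all genes. The genotypes did not overlap for 3 members in normoxia, 3 in hypoxia and 4 in tumor, against 20%, 32.6% and 26.1% of all genes tested. A member tested in an experiment had passed a filter on low counts, which Ccl7 missed in normoxia, Ccl24 in hypoxia and Ccl17 in tumor.

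**Figure D3:**
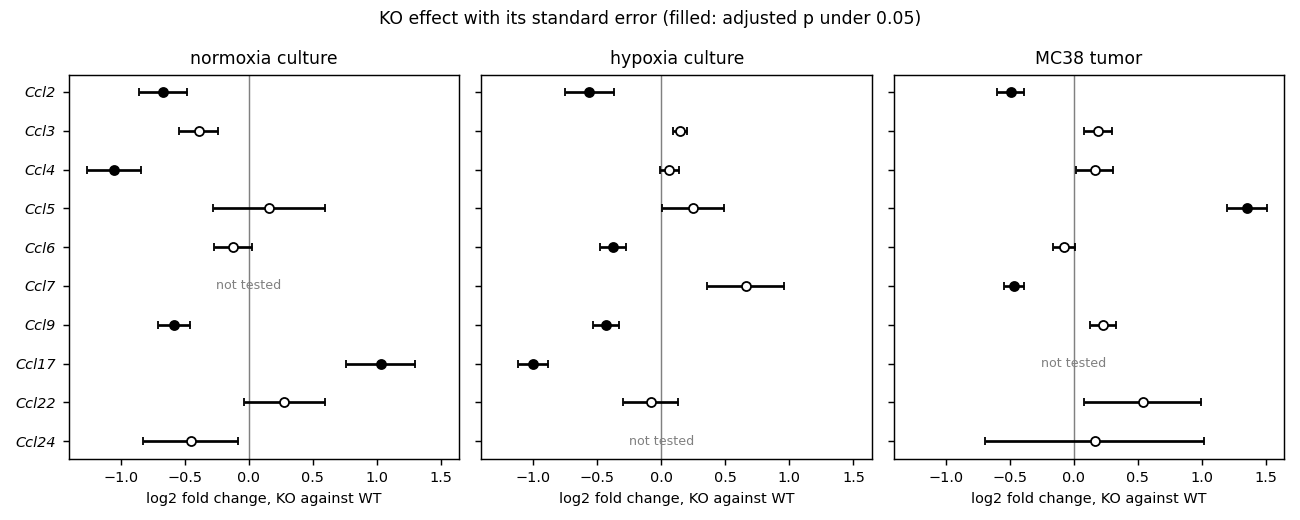
Each point is the log2 fold change (KO against WT, x axis) with its standard error for the 10 genes (y axis) in normoxia, hypoxia and tumor, filled where the adjusted p was under 0.05. Ccl17 lies at 1.03 in normoxia and -0.999 in hypoxia, Ccl2 below 0 in all 3, and Ccl5 at 1.35 in tumor.

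The KO effects were then compared between experiments by the test of their difference. For hypoxia minus normoxia 2 of 10 members passed (Ccl4 and Ccl17), against 0.476% of all genes tested. For tumor minus normoxia 2 of 10 passed (Ccl4 and Ccl9), against 5.18%, and for tumor minus hypoxia 2 of 10 (Ccl7 and Ccl9), against 7.7%. The last 2 comparisons share the tumor libraries, and the first 2 the normoxia libraries.

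Between the 2 culture conditions most members were higher in hypoxia. In WT cultures 7 of 10 were higher and 1 lower, against 26.8% and 24.9% of all genes tested, and in KO cultures 6 were higher and 1 lower, against 26.3% and 25.5%. Ccl7, among the higher in both genotypes, passed the filter on low counts for this comparison through hypoxia, where it was higher. Ccl24, the 1 lower in WT, passed it through normoxia, where it was higher. Their calls come after that selection. The condition cannot be told apart from the culture time, the count table and the sequencing depth that go with it. Monocyte and macrophage markers were higher in hypoxia for 3 of 8 in WT and 4 of 8 in KO, where 1 was lower. Dendritic cell markers were higher for 7 of 8 and 6 of 8. Of 8 neutrophil markers, 1 was higher and 3 lower in WT, and 2 and 2 in KO. Of 8 markers of the labelled myeloid cells, 1 was higher and 5 lower in WT, and 0 and 4 in KO. Eosinophil markers were higher for 6 of 7 in WT and 7 of 7 in KO, with median log2 fold changes of 5.65 and 4.71. Mast cell and basophil markers were higher for 7 of 8 and 8 of 8, with medians of 5.31 and 4.75. In normoxia 5 of 7 eosinophil, 7 of 8 mast cell and basophil and 7 of 8 dendritic cell markers passed the filter on low counts. All of them passed it in hypoxia. Markers that missed it in normoxia entered this comparison through hypoxia, so their calls, and their part in the medians, come after that selection. The part of these cell types in the chemokine differences was not tested.

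Ccl4 and Ccl7 rose most among the members. The log2 fold change of Ccl4, hypoxia against normoxia, was 2.65 ± 0.16 in WT and 3.77 ± 0.17 in KO (SE; edgeR adjusted p = 5.01e-10 and 1.26e-11). Its mean went from 12.2 to 70.5 CPM in WT and from 5.84 to 73.6 CPM in KO. Ccl7 went from 8 reads over the 4 WT normoxia libraries to 230 over the 4 WT hypoxia libraries, a rate ratio of 21.7 (exact 95% interval 10.8 to 51.0, counting error only), and from 4 to 349 in KO, a ratio of 66.7 (25.8 to 246). Ccl3 rose by 1.67 ± 0.12 in WT and 2.21 ± 0.12 in KO (SE; edgeR adjusted p = 2.97e-09 and 9.12e-11).

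Ccl2, Ccl5 and Ccl9 rose in both genotypes. For Ccl2 the log2 fold changes were 1.61 ± 0.20 in WT and 1.72 ± 0.21 in KO, for Ccl5 1.74 ± 0.38 and 1.83 ± 0.37, and for Ccl9 1.196 ± 0.12 and 1.35 ± 0.13 (SE; edgeR adjusted p at most 0.00114). The difference of effects was 0.11 ± 0.28 for Ccl2, 0.09 ± 0.54 for Ccl5 and 0.15 ± 0.17 for Ccl9, and none of the 3 passed. Ccl17 rose in WT by 1.06 ± 0.23 (edgeR adjusted p = 0.000912) and fell in KO by 0.96 on the log2 scale (SE 0.23; edgeR adjusted p = 0.00192).

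Ccl6, the most abundant in culture, did not pass between conditions in either genotype (log2 0.19 ± 0.14 in WT and -0.06 ± 0.14 in KO, SE; edgeR adjusted p = 0.248 and 0.732). Ccl22 did not pass either (0.71 ± 0.32 and 0.35 ± 0.32; adjusted p = 0.0778 and 0.382), though in WT it passed at 0.000850 without normoxia replicate 3. Ccl24 was lower in hypoxia in WT, from 60 to 24 summed reads (log2 -1.57 ± 0.41, SE; edgeR adjusted p = 0.00343). In KO it went from 41 to 27 reads and did not pass (log2 -0.89 ± 0.42, SE; edgeR adjusted p = 0.0858), but passed at 0.0374 without hypoxia KO replicate 2. Ccl24 missed the filter on low counts in hypoxia and entered the fit of both cultures through normoxia, where it was higher. Its p-values here come after that selection.

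**Figure D4:**
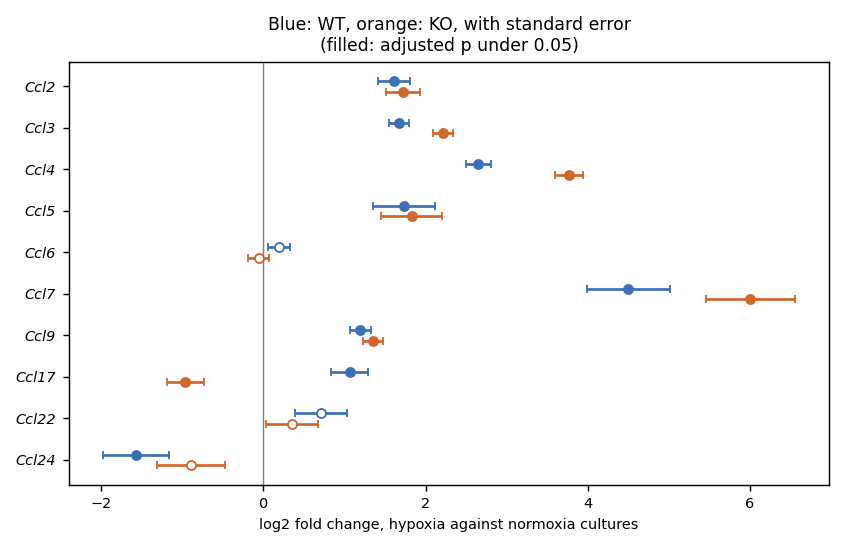
Points are log2 fold changes of hypoxia against normoxia cultures with their standard errors (x axis) for the 10 genes (y axis), blue for WT and orange for KO, filled where the adjusted p was under 0.05. Ccl17 lies on opposite sides of 0 in the genotypes, at 1.06 in WT and -0.96 in KO, and Ccl4 at 2.65 and 3.77.

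The receptors were measured in the same libraries, and 7 of 13 listed receptor genes were tested in each experiment. Ccrl2, a non-signalling receptor of this list, was lower in KO cultures and higher in KO tumor. In normoxia it had 16.2 to 22.9 CPM in WT and 11.5 to 12.9 CPM in KO (log2 -0.64 ± 0.12, SE, n = 4 and 4; edgeR adjusted p = 0.00809). In hypoxia it had 48.3 to 61.1 CPM in WT and 38.6 to 44.9 CPM in KO (log2 -0.35 ± 0.08, SE, n = 4 and 4; edgeR adjusted p = 0.00840). In tumor it had 341 to 361 CPM in WT and 438 to 484 CPM in KO (log2 0.40 ± 0.07, SE, n = 3 and 3; edgeR adjusted p = 0.00398), and no experiment had an overlap.

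Ccr2, the receptor of Ccl2 and Ccl7, and Ccr1 passed in no genotype comparison. Ccr2 in tumor was at 1292 to 1451 CPM in WT and 1342 to 1507 CPM in KO. Ccr3, the Ccl24 receptor, was higher in KO hypoxia cultures, at 0.374 to 0.532 CPM in WT and 1.43 to 2.07 CPM in KO (log2 1.85 ± 0.21, SE; edgeR adjusted p = 9.51e-05), beside eosinophil markers that were higher for 7 of 7. Ccr4, the receptor of Ccl17 and Ccl22, was lower in KO tumor (edgeR adjusted p = 0.0105), beside the lower T cell markers. It had 42 reads over 3 WT libraries and 2 over 3 KO libraries (rate ratio 0.0666, exact 95% interval 0.00781 to 0.256). Ccr4 passed the filter on low counts through the WT libraries alone. Its call, counted below, thus comes after selection by the higher group. In all, of 7 receptors tested in each experiment, 0 were higher and 1 lower in normoxia by edgeR (1 higher, Ccr10, at an unadjusted p under 0.05). The counts were 1 and 1 in hypoxia, and 1 and 1 in tumor. Of all genes tested, 7.13% were higher and 4.17% lower in normoxia, 17.4% and 17.6% in hypoxia, and 3.28% and 3.04% in tumor. The hypoxia counts of receptors were thus near the shares of all genes.

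**Figure D5:**
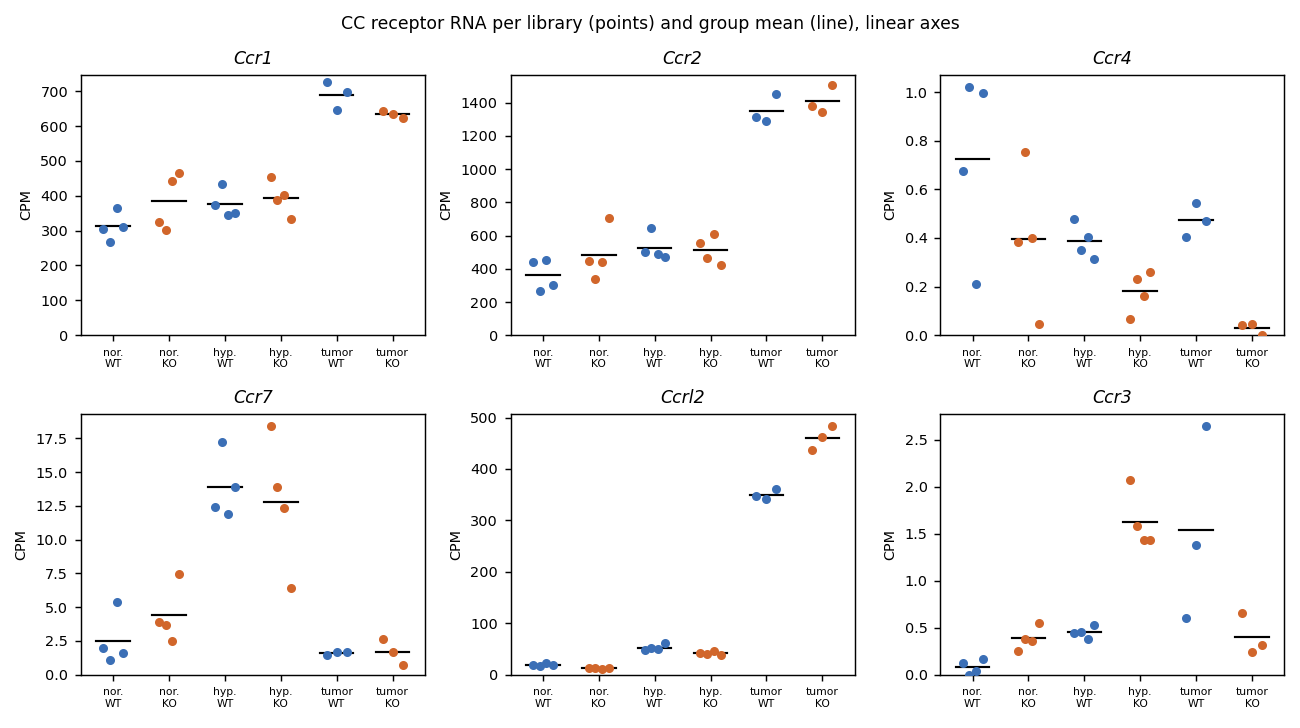
Points are the CPM of 6 receptor genes in each library and lines are group means, on linear axes that start at 0 and differ between genes (nor., normoxia; hyp., hypoxia; blue, WT; orange, KO). Ccrl2 lies lower in KO than in WT in both cultures and higher in tumor, at 438 to 484 against 341 to 361 CPM, and Ccr2 overlaps in all 3.

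Of 11 other CC chemokines, 2 were tested in each culture, where edgeR called 0 (0 also at an unadjusted p under 0.05), and 4 were tested in tumor. Ccl12, another CCR2 ligand, was at 221, 194 and 183 CPM in WT tumor and 121, 146 and 116 CPM in KO (log2 -0.64 ± 0.10, SE, n = 3 and 3; edgeR adjusted p = 0.00239). Ccl8, a monocyte chemoattractant, was at 42.3, 42.0 and 42.4 CPM in WT tumor and 59.0, 67.0 and 60.8 CPM in KO (log2 0.56 ± 0.08, SE, n = 3 and 3; edgeR adjusted p = 0.00103). Neither overlapped between genotypes, as held for 26.1% of all genes tested in tumor. Of the 4 tested, 1 was called higher and 1 lower, against 3.28% and 3.04% of all genes. Ccl12 thus moved in the direction of Ccl2 and Ccl7, and Ccl8 in the other.

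Of 23 inducers and regulators of chemokine genes, 2 were higher and 4 lower in KO normoxia, 2 and 5 in KO hypoxia, and 7 and 0 in KO tumor by edgeR (0 lower also at an unadjusted p under 0.05). Of all genes tested, 7.13% were higher and 4.17% lower in normoxia, 17.4% and 17.6% in hypoxia, and 3.28% and 3.04% in tumor, so that the hypoxia counts were near or below the shares of all genes. The interleukin 1 genes, whose products induce many chemokines, were lower in both cultures, Il1a by 2.56 and Il1b by 0.85 in normoxia as drops on the log2 scale, and Il1a at -1.68 and Il1b at -0.73 in hypoxia (edgeR adjusted p at most 0.0109). Tnfaip3, an inhibitor of NF-kappaB signalling, was at -0.50 in normoxia, -0.33 in hypoxia and 0.32 in tumor, and each of these passed. Dpp4, a protease that clips several chemokines, was higher in KO normoxia (1.71) and KO tumor (0.83). In tumor the NF-kappaB subunit genes Nfkb1 (0.33), Nfkb2 (0.30) and Relb (0.30) were also higher.

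Of 14 genes of chemokine receptor signalling, 5 were higher and 1 lower in KO normoxia, 5 and 2 in KO hypoxia, and 3 and 2 in KO tumor. The shares of all genes tested that were called higher and lower were 7.13% and 4.17% in normoxia, 17.4% and 17.6% in hypoxia, and 3.28% and 3.04% in tumor, so that 2 of 14 lower in hypoxia was near the share of all genes. Arrb2, which ends receptor signalling, was at 0.45 in normoxia and 0.68 in hypoxia, Rac2, a GTPase of leukocyte movement, at 0.42 and 0.50, and Rgs18, a regulator of G proteins, at 0.72 and 0.88 (log2; each passed). Rgs1, which restrains chemokine receptors, was lower, at -1.41 and -0.59. In tumor the receptor kinase gene Grk3 was higher, at 0.76. The median of this list was 0.27 in normoxia, 0.18 in hypoxia and -0.10 in tumor, and that of the inducers 0.03, -0.04 and 0.23.

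Over the 22 libraries each member had genes whose log2 CPM followed it closely. These coefficients are descriptions, since libraries of an experiment share a table and a depth, and the contrast between cultures and tumor dominates them. The closest were Psme1 for Ccl2 (Pearson r = 0.996), Ier3 for Ccl7 (0.989), H2-DMb1 for Ccl5 (0.989), Tnfaip3 for Ccl4 (0.980) and Sfr1 for Ccl3 (0.970). For the others they were Kif1c for Ccl6 (0.983), Sgk1 for Ccl9 (0.972), S100a9 for Ccl17 (0.961), Cxcr2 for Ccl22 (0.985) and Txndc9 for Ccl24 (0.975). Ffar2 was second for both Ccl17 (0.961) and Ccl22 (0.984).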

How the data were processed

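Per the labels' protocols, Qiagen RNeasy columns gave the RNA, and 100 ng of it went into each Takara SMART-Seq library. The authors deposited raw counts per gene in 3 tables, made with Subread and featureCounts on GRCm38.p6, per the submitters' processing notes, with versions and strand setting not given in the sources used here. The deposited tables scaled with DESeq2 hold a normalized signal equal to the counts times 1 factor per library, and were not used in tests. Here edgeR 4.0.16 (R 4.3.3) was run on the counts of each experiment with filterByExpr, TMM scaling, a robust quasi-likelihood fit and Benjamini-Hochberg adjustment over all 13950, 15018 or 14370 genes tested, at a threshold of 0.05. Differences between KO effects, and between culture conditions, came from joint fits of 16 or 22 libraries. CPM uses TMM-scaled totals within an experiment, so levels set across experiments rest on separately scaled tables. Replicates differed beyond counting noise (smallest chi-square per degree of freedom 4.85).

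All 10 members, the lowest p genes of the other lists (up to 4), receptors of members and the 2 nearest genes by Pearson r are named. The members and lists were chosen with earlier results of these data known. A receptor gene of the lists is not reported here. The fits were tested on simulated data. Alternatives were DESeq2 1.42.0, its size factors, library size only, no filter, a replicate block and each library left out, and, chosen after seeing the data, both tumor libraries numbered 3 left out.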

Additional observations from a re-analysis of the deposited data

Results flagged for a closer look

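In 40 sets of 4 culture libraries (10 genes, 4 groups), 1 library stood apart from the other 3 in 2, and chance alone gives about 1 in 20. They were Ccl3 in normoxia KO replicate 4, at 68.4 CPM below 3 libraries between 85.9 and 87.2, and Ccl24 in hypoxia WT replicate 1, at 0.319 CPM, which is 10 reads beside 4 to 5 in the others.

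The KO effect differed between experiments for 4 members by the edgeR quasi-likelihood test of the difference. For Ccl4 the log2 difference was 1.12 for hypoxia minus normoxia (adjusted p = 0.0295) and 1.19 for tumor minus normoxia (adjusted p = 0.00668). For Ccl17 it was -2.03 for hypoxia minus normoxia (adjusted p = 0.00725). For Ccl9 it was 0.78 for tumor minus normoxia (adjusted p = 0.0111) and 0.62 for tumor minus hypoxia (adjusted p = 0.0365), and for Ccl7 it was -1.16 for tumor minus hypoxia (adjusted p = 0.0220).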

How the results depend on the processing

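No value reported for a member changed direction with a call under any alternative tried. Of the alternative values for single members, 1174 stayed on their side of the threshold, 46 lost a call and 11 gained one. The calls for Ccl4 in normoxia, Ccl6, Ccl9 and Ccl17 in hypoxia, Ccl5 and Ccl7 in tumor, Ccl17 for hypoxia minus normoxia, and Ccl4 and Ccl9 for tumor minus normoxia held under every alternative run. With no filter on low counts 1 member passed in place of 2 for hypoxia minus normoxia, and 1 in place of 2 for tumor minus hypoxia, as also without both tumor libraries numbered 3 (1). Leaving out 1 library at a time, the members called ranged from 1 to 4 in normoxia (1 without WT replicate 1), 3 to 4 in hypoxia, 2 to 4 in tumor, 1 to 2 for hypoxia minus normoxia, 8 to 9 for the culture conditions in WT and 7 to 8 in KO, 2 to 3 for tumor minus normoxia, and 0 to 2 for tumor minus hypoxia (0 without hypoxia KO replicate 2). Without normoxia WT replicate 3 and KO replicate 4 together 5 members passed.

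Replicate numbers did not clearly pair the culture samples, while in tumor every library went best with its own number. Whether the tumor samples were paired is not given in the labels, and the main tests used no pairing. Deviations of same-numbered libraries correlated at -0.06 to 0.37 in normoxia, -0.16 to 0.02 in hypoxia and 0.08 to 0.22 in tumor, and 3 of 8, 0 of 8 and 6 of 6 libraries correlated best with their own number. With the replicate block 3 members passed in each KO comparison (Ccl17 in normoxia was at an adjusted p of 0.0636 and Ccl2 in hypoxia at 0.0621), and over all genes the tumor calls went from 908 to 2266 and those for hypoxia minus normoxia from 73 to 40.

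Over all genes, normoxia calls numbered 1577, and ranged from 469 to 2234 over 8 fits that each left out 1 library. They were 469 to 723 without KO replicate 3 or WT replicate 1, 2 or 4, and 2881 without WT replicate 3 and KO replicate 4. Tumor calls numbered 1363 with no filter, and 443 to 1072 over 6 fits that each left out 1 library. The lowest, 443 to 515, came without KO replicate 1 or 2 or WT replicate 2. Those for hypoxia minus normoxia ranged from 40 to 100 over 16 fits that each left out 1 library. They numbered 125 without the 2 normoxia libraries and 193 by DESeq2, which gave 1392 in place of 865 for tumor minus normoxia. At library size only the median of all genes moved to -0.11 in normoxia, -0.15 and -0.11 between culture conditions in WT and KO, and 0.12 for tumor minus normoxia. Higher and lower calls were then 726 and 951 in normoxia (995 and 582 with TMM), 2185 and 3177 in hypoxia (2607 and 2638), 3164 and 5510 in WT (4110 and 3822) and 3357 and 4938 in KO (4030 and 3910) between conditions, 42 and 42 for hypoxia minus normoxia (29 and 44), 480 and 347 for tumor minus normoxia (307 and 558), and 684 and 595 for tumor minus hypoxia (489 and 796). At 0 to 3 reads per library, depth did not allow a genotype test of Ccl7 in normoxia.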
